A study of Homo sapiens with 12 samples.

Results

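The genes described are 6 matrix metalloproteinases (MMP1, MMP2, MMP3, MMP9, MMP13 and MMP14) and 4 of their inhibitors (TIMP1, TIMP2, TIMP3 and RECK), taken by symbol from 12 tables of RNA-seq expression. All 10 symbols were found among the 56140 gene symbols of each table. The cells were 143B, an established human osteosarcoma line that descends from the HOS line through transformation with Ki-ras and is labelled wild-type. They received DMSO, the solvent control, or ceritinib at 1.0 µM, or crenolanib at 1.0 µM, or both compounds at 1.0 µM each, and every group was collected at 48 h with 3 biological replicates. Ceritinib is an inhibitor of the kinase ALK and also of the IGF-1 receptor, and crenolanib is an inhibitor of the PDGF receptors and FLT3. All groups are the same cell line grown alone in dishes, so no other cell type of a tumour is present as a source or a target of these enzymes.

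Matrix metalloproteinases are zinc enzymes that cut proteins of the extracellular matrix and of the cell surface, and most are made as inactive proenzymes that have to be cleaved. The TIMPs are secreted proteins that bind the active site of these enzymes, while RECK is an inhibitor anchored in the cell membrane. In bone tumours these enzymes are studied for their part in invasion and in the breakdown of bone matrix. Transcript levels do not show how much proenzyme is activated or how much inhibitor is bound.

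The libraries held an estimated 19.6 to 28.3 M fragments. The labels' extraction text speaks of a thymic sample, so leukocyte markers were examined: 0 of 10 reached 1 FPKM in any group, CD3G was at 0, PTPRC was at or near 0, and their summed level was 0.234 to 1.19 FPKM over all libraries. Of 10 osteoblast lineage markers 4 reached 1 FPKM in any group, with SPARC at group means of 48.2 to 81.5 FPKM. The defining osteoblast markers IBSP, at 0, and SP7, BGLAP and ALPL, at no more than 0.0714 FPKM, were absent or nearly so. Of 6 mesenchymal markers 5 reached it, with VIM at group means of 406.6 to 480.1 FPKM, and THY1 was at 0. Of 6 epithelial markers, FOXN1 and PSMB11 of thymic epithelium among them, 1 reached it, EPCAM at 0.907 to 1.94 FPKM, and FOXN1 was at 0. Of 4 macrophage markers 1 reached it, CD68 at 20.9 to 33.4 FPKM, while CD14, CSF1R and ITGAM were at most 0.0647 FPKM. The combination libraries stood apart from the others: 10284 to 10358 genes reached 1 FPKM there against 11220 to 11464 in the other groups. Their deviation from the DMSO mean followed GC content across genes (Spearman 0.636 to 0.672, against -0.149 to 0.204 in single libraries of the other groups). Changes of tested genes under the combination are therefore given as deposited and after removal of the trends with GC content and transcript length, called GC-corrected below. Such a correction would also remove a trend that the drugs caused.

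In DMSO cells the 10 genes spanned a wide range of levels in FPKM, a unit scaled to transcript length that allows levels to be set beside each other. MMP1 stood first at 538.0 ± 2.88 FPKM (mean ± SD, n = 3), followed by TIMP3 at 59.6 ± 1.27, TIMP1 at 39.0 ± 1.41 and MMP14 at 32.7 ± 0.999. TIMP2 (5.57 ± 0.192), MMP2 (2.64 ± 0.0833) and RECK (2.54 ± 0.118) formed a lower tier, in which the MMP2 and RECK libraries overlapped. MMP9 (0.874 ± 0.0569), MMP13 (0.151 ± 0.0892) and MMP3 (0.117 ± 0.0613) lay below 1 FPKM, and the libraries of MMP13 and MMP3 overlapped. MMP1 kept the first place in every group. As deposited, TIMP1 passed TIMP3 for the second place in the combination alone, and the ceritinib libraries of TIMP1 and TIMP3 overlapped. From GC-corrected levels TIMP1 was above TIMP3 with ceritinib as well (48.7% and 43.3% of the summed TIMP1, TIMP2 and TIMP3 level).

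**Figure D1:**
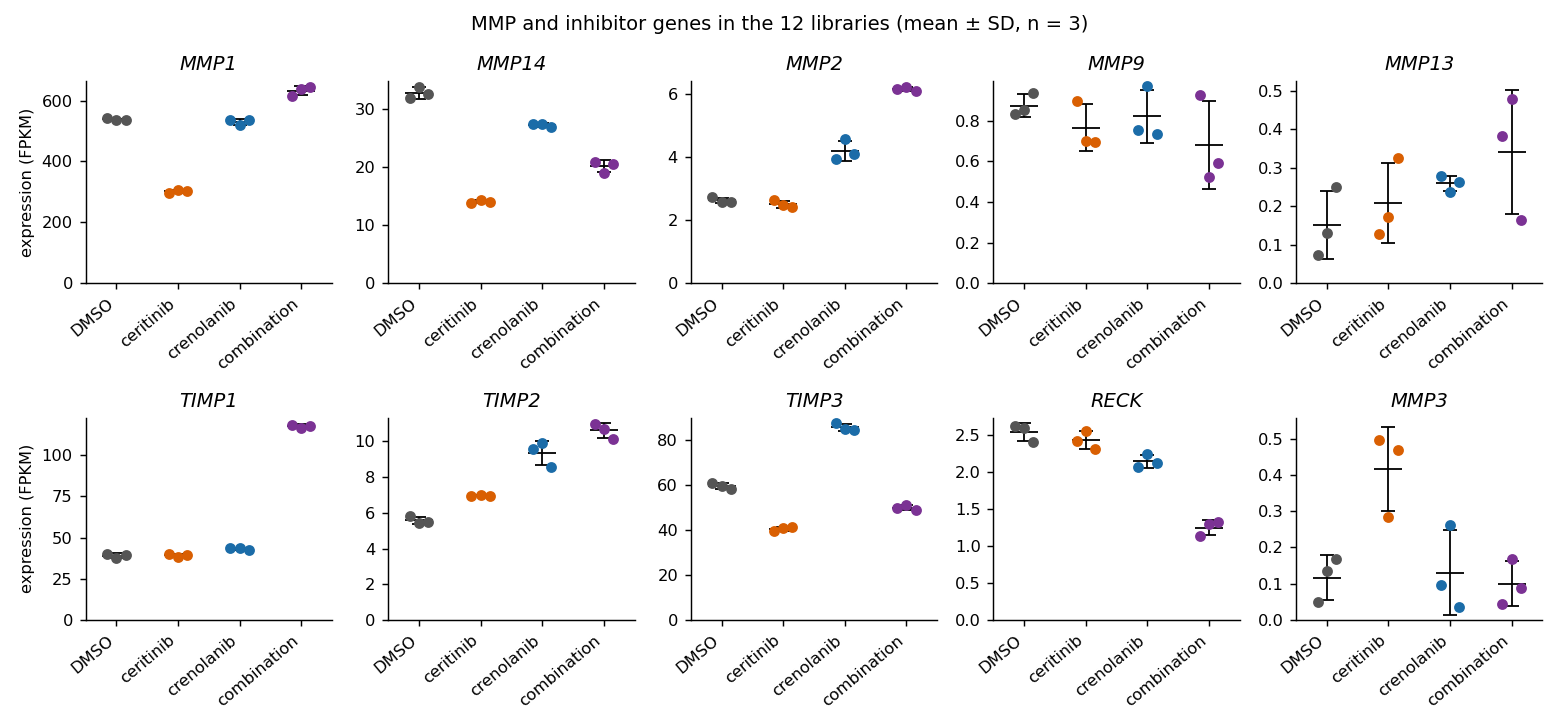
Expression in FPKM (vertical axes, each starting at 0 and scaled per gene) of the 10 genes by group. Points are the 3 libraries of a group and bars the mean ± SD. MMP1 is lowest in the ceritinib libraries, and TIMP1 is highest in the combination libraries, at 116.3 to 118.4 FPKM.

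The collagenases MMP1 and MMP13 open the triple helix of fibrillar collagens. MMP1 lies on chromosome 11 at 102789920 to 102798160 (GRCh38, minus strand). It read 541.3, 537.0 and 535.8 FPKM in the DMSO libraries, 296.4, 305.0 and 304.4 with ceritinib, 536.4, 519.0 and 536.1 with crenolanib, and 615.1, 636.8 and 643.4 with both drugs. The ceritinib libraries lay below all others, the combination libraries above all others, and the DMSO and crenolanib libraries overlapped. With ceritinib MMP1 fell by 0.83 log2 units (SE 0.025, adjusted p = 4.52e-10), 1.78-fold on the FPKM scale. These changes and those below are differences of log2(FPKM + 1), which understates the change of genes near 1 FPKM. In bulk RNA a lower level in each cell and fewer cells that express a gene cannot be told apart. With crenolanib the MMP1 difference was -0.02 (95% interval -0.07 to 0.03, adjusted p = 0.579), and its sign turned under quantile normalization and GC correction. With both drugs MMP1 rose by 0.23 (SE 0.025, adjusted p = 1.40e-06), and the GC-corrected rise was 0.56 (adjusted p = 2.62e-11), while quantile normalization, which forces the same distribution on every library, gave -0.22. Crenolanib on top of ceritinib thus came with an MMP1 level 2.09-fold that of ceritinib alone, a log2 difference of 1.06 (adjusted p = 1.32e-12) as deposited, 1.41 after GC correction and 0.56 under quantile normalization.

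MMP13 was near the limit of detection, with an estimated 5 to 26 fragments per library. It read 0.0740, 0.131 and 0.249 FPKM with DMSO, 0.129, 0.172 and 0.327 with ceritinib, 0.277, 0.238 and 0.264 with crenolanib, and 0.382, 0.480 and 0.164 with both drugs. All groups overlapped, and no difference was detectable at this depth. MMP13 lies on chromosome 11 at 102942995 to 102955734.

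The gelatinases MMP2 and MMP9 cut denatured collagen and the collagen of basement membranes. MMP2, on chromosome 16 at 55389700 to 55506691 (plus strand), read 2.74, 2.59 and 2.59 FPKM with DMSO and 2.65, 2.48 and 2.43 with ceritinib, and these ranges overlapped. It read 3.96, 4.57 and 4.12 with crenolanib and 6.17, 6.23 and 6.10 with both drugs, so crenolanib and then the combination formed separate steps above DMSO. Crenolanib raised MMP2 by 0.52 log2 units (SE 0.046, adjusted p = 1.14e-05), 1.60-fold in FPKM. The combination raised it by 0.98 (SE 0.046, adjusted p = 4.95e-10), 2.34-fold in FPKM, and by 0.70 after GC correction. With ceritinib alone the MMP2 difference was -0.05 (95% interval -0.15 to 0.05, adjusted p = 0.445).

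MMP9, on chromosome 20 at 46008908 to 46016561, stayed below 1 FPKM in every library, with an estimated 24 to 59 fragments. Its libraries read 0.831, 0.852 and 0.938 FPKM with DMSO, 0.899, 0.700 and 0.696 with ceritinib, 0.756, 0.970 and 0.736 with crenolanib, and 0.925, 0.521 and 0.592 with both drugs, and all groups overlapped. The antisense gene SLC12A5-AS1 covers part of the same locus and read 0.142 to 0.826 FPKM. Whether the strand was used in counting is not given in the sources used here, so reads of MMP9 and of its antisense neighbour may not be separated.

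MMP3, a stromelysin that cuts many matrix proteins and can activate other proenzymes such as that of MMP1, was the one gene of the low tier whose groups separated. It read 0.0487, 0.134 and 0.168 FPKM with DMSO, 0.496, 0.284 and 0.469 with ceritinib, 0.0972, 0.261 and 0.0345 with crenolanib, and 0.0443, 0.167 and 0.0893 with both drugs. All ceritinib libraries lay above all others. The ceritinib mean was 3.56 times the DMSO mean, with an estimated 2 to 28 fragments behind a value. The exact two-sided permutation test gave p = 0.1, the smallest it can give for 3 against 3 libraries, and 0.6 after adjustment over 18 comparisons of MMP3, MMP9 and MMP13. Without the filter on low values limma gave a log2 difference of 0.34 (adjusted p = 0.0189). MMP3 lies on chromosome 11 at 102835801 to 102843803, close to MMP1.

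MMP14, a protease bound to the cell membrane, cuts collagen at the cell surface and activates the proenzyme of MMP2, with TIMP2 as the bridge between them. It lies on chromosome 14 at 22836557 to 22849027 (plus strand). Its libraries read 31.8, 33.8 and 32.6 FPKM with DMSO, 13.8, 14.3 and 13.9 with ceritinib, 27.4, 27.4 and 26.8 with crenolanib, and 20.9, 19.0 and 20.6 with both drugs. No groups overlapped, and the order was DMSO, crenolanib, combination and ceritinib. MMP14 fell by 1.17 log2 units with ceritinib (SE 0.036, adjusted p = 6.01e-10), 2.33-fold in FPKM. It fell by 0.26 with crenolanib (SE 0.036, adjusted p = 3.36e-04) and by 0.67 with both drugs (SE 0.036, adjusted p = 1.62e-09), where the GC-corrected fall was larger, a difference of -1.05 (adjusted p = 4.39e-11). The combination level was above that of ceritinib alone by 0.49 as deposited (adjusted p = 3.53e-08), and by 0.12 after GC correction (adjusted p = 0.0063).

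TIMP1, a secreted inhibitor of most soluble metalloproteinases that inhibits MMP14 poorly, lies on chromosome X at 47582313 to 47586789 (plus strand). It read 40.3, 37.5 and 39.2 FPKM with DMSO, 39.9, 38.4 and 39.7 with ceritinib, 43.8, 43.5 and 42.6 with crenolanib, and 118.4, 116.3 and 117.9 with both drugs. The combination libraries stood far above the rest, the crenolanib libraries slightly above DMSO, and the ceritinib libraries within the DMSO range. TIMP1 rose by 1.57 log2 units with both drugs (SE 0.029, adjusted p = 2.65e-13), 3.02-fold in FPKM, and by 0.93 after GC correction (adjusted p = 7.98e-11). Crenolanib alone raised it by 0.15 (SE 0.029, adjusted p = 0.00281). With ceritinib alone the difference was 0.01 (95% interval -0.05 to 0.08, adjusted p = 0.759), and it took the opposite sign under TPM scaling, median-of-ratios scaling, quantile normalization, GC correction and without DMSO replicate 2 (-0.01).

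TIMP2 inhibits metalloproteinases and, at low amounts, helps MMP14 to activate the proenzyme of MMP2. It lies on chromosome 17 at 78852977 to 78925387 (minus strand). Its libraries read 5.80, 5.45 and 5.47 FPKM with DMSO, 6.919, 6.998 and 6.950 with ceritinib, 9.56, 9.90 and 8.57 with crenolanib, and 10.99, 10.71 and 10.15 with both drugs. The groups formed 4 separate steps in that order. TIMP2 rose by 0.28 with ceritinib (SE 0.047, adjusted p = 7.94e-04), by 0.65 with crenolanib (SE 0.047, adjusted p = 2.15e-06) and by 0.82 with both (SE 0.047, adjusted p = 3.39e-09; 0.69 after GC correction). The last step, from crenolanib to the combination, was 0.17 (adjusted p = 0.00504), and it did not pass the threshold after GC correction (0.03, adjusted p = 0.465) or on the TPM scale (0.05, adjusted p = 0.396).

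TIMP3 binds to the matrix and inhibits metalloproteinases as well as ADAM17 and the aggrecanases. It lies on chromosome 22 at 32801701 to 32863043 (plus strand). It read 60.8, 59.8 and 58.3 FPKM with DMSO, 39.6, 41.1 and 41.3 with ceritinib, 87.6, 85.2 and 84.5 with crenolanib, and 49.8, 51.2 and 49.1 with both drugs. The single drugs thus placed TIMP3 on opposite sides of DMSO, and no groups overlapped. TIMP3 fell by 0.54 with ceritinib (SE 0.028, adjusted p = 3.83e-08) and rose by 0.52 with crenolanib (SE 0.028, adjusted p = 1.65e-07). With both drugs it fell by 0.25 as deposited (SE 0.028, adjusted p = 2.31e-06). That fall was not seen after GC correction (0.02, adjusted p = 0.394) and did not pass the threshold under median-of-ratios scaling (-0.05, adjusted p = 0.125). It was larger on the TPM scale (-0.41) and under quantile normalization (-0.51), so the alternatives differed in both directions.

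RECK, the membrane-anchored inhibitor, lies on chromosome 9 at 36036433 to 36124451 (plus strand). It read 2.62, 2.59 and 2.40 FPKM with DMSO, 2.42, 2.55 and 2.31 with ceritinib, 2.07, 2.24 and 2.12 with crenolanib, and 1.13, 1.29 and 1.32 with both drugs. The combination libraries were lowest and the ceritinib libraries overlapped DMSO. RECK fell by 0.65 with both drugs as deposited (SE 0.049, adjusted p = 4.71e-08), 2.03-fold in FPKM, but the GC-corrected difference was -0.05 (adjusted p = 0.308). The RECK transcript is the longest of the 10, at 4888 nt, and has a GC content of 44.2%, and the part of both in this result was not tested. With crenolanib RECK fell by 0.17 (SE 0.049, adjusted p = 0.0249). That call was lost without DMSO replicate 1 (adjusted p = 0.0848), DMSO replicate 2 (0.0761), crenolanib replicate 1 (0.0759) or crenolanib replicate 3 (0.0662). With ceritinib the difference was -0.05 (95% interval -0.15 to 0.06, adjusted p = 0.505).

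Promoter sequences are shown for MMP14, TIMP1 and TIMP3, because ceritinib lowered the first, the combination raised the second and the single drugs moved the third in opposite directions. The RefSeq promoter table used holds 4 of the 10 genes, these and RECK. The RECK window lies wholly past the GENCODE start of the gene, so none of it is printed. Each run is on GRCh38.p14, plus strand, 5′ to 3′, and ends before the first annotated transcribed base of the named gene. The TIMP1 and TIMP3 runs lie within the bounds of other genes on the opposite strand, SYN1 and SYN3. Capitals mark the letters GGGCGG, the core of a GC box bound by SP1 family factors, on either strand.
MMP14, chr14:22836335-22836556: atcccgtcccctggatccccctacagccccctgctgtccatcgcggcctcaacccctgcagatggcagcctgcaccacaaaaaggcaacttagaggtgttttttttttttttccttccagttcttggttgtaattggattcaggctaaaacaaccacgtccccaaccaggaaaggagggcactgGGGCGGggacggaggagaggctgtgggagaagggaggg
TIMP1, chrX:47582186-47582312: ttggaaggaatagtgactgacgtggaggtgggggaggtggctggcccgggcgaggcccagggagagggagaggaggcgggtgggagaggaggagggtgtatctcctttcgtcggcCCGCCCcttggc
TIMP3, chr22:32801455-32801700: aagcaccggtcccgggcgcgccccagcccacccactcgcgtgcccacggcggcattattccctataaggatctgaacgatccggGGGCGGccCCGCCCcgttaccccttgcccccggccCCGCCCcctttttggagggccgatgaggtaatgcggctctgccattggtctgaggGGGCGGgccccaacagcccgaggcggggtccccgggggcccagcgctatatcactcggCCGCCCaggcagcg
Over the 250 bases before the RefSeq start, GGGCGG was found 5 times at TIMP3, 3 times at RECK, 2 times at TIMP1 and 1 time at MMP14, and it occurs in 42.6% of 35116 RefSeq promoters of that length. All RECK matches, and the TIMP1 match at -45 from the RefSeq start, lie past the GENCODE start of the gene, in bases not printed. The GC content of the same window was 72.4% at TIMP3, 64.8% at TIMP1, 63.6% at RECK and 56.8% at MMP14, with a median of 58% over all promoters. The AP-1 letters TGANTCA, on either strand, were found in none of the 4 windows and occur in 6.57% of promoters. The ETS letters AGGAAG were found at TIMP1 only among the 4, and occur in 28.7% of promoters. The RUNX letters TGTGGT were found once each at MMP14 and TIMP1, and occur in 10.98%, and the TATA letters TATAAA were found in none of the 4 and occur in 10.7%. The ETS and RUNX matches at TIMP1 also lie past its GENCODE start. All motifs were searched on both strands, and no matches of different motifs overlapped. These matches describe letters in a window and were not tied to any change in expression.

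Ceritinib lowered the enzymes MMP1 and MMP14 and the inhibitor TIMP3, and raised the inhibitor TIMP2. Against DMSO, 4 of the 7 genes that reached the testing level (at least 1 FPKM in at least 3 libraries) passed an adjusted p of 0.05, 1 higher and 3 lower. Of all 11944 tested genes 36.5% passed, 20.3% higher and 16.3% lower. On the TPM scale, where all 10 genes were tested, 2 were higher and 3 lower. Of all 15658 genes tested on that scale 1479 were higher and 3109 lower. MMP3 reached the testing level there only with its ceritinib libraries counted. Nothing is therefore read from its part in the TPM counts of these 10 genes, here and below. The fall of MMP14 was the one 2-fold change among the 7 genes (log2 change of at least 1), a size that 0.544% of all tested genes reached. The median change of the 7 genes was -0.05, and that of all tested genes 0.01. The 3 genes under the testing level were MMP3, MMP9 and MMP13, and the 7 tested genes were at or above 1 FPKM in every library.

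Crenolanib raised MMP2 and all 3 TIMPs, and lowered MMP14 and, at the edge of the threshold, RECK. Of the 7 tested genes 6 passed, 4 higher and 2 lower, against 26.0% of all tested genes, of which the shares higher and lower were 13.0% and 13.0%. The median change of the 7 genes was 0.15, against -0.0036 over all tested genes. These comparisons share the DMSO libraries.

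Set directly against crenolanib, ceritinib cells had less MMP1, MMP2, MMP14, TIMP1, TIMP2 and TIMP3. For this contrast 6 of 7 genes passed, all 6 lower with ceritinib, where 34.8% of all tested genes passed, 19.4% higher and 15.4% lower. On the TPM scale, with 10 genes tested, 1 was higher and 6 lower, where 1650 of all 15658 tested genes were higher and 2589 lower. Here too MMP3 was tested only with its ceritinib libraries counted, and nothing is read from its part. TIMP3 differed most, by -1.06 log2 units (SE 0.028, adjusted p = 1.92e-10), 2.11-fold in FPKM, and was the one gene past 2-fold (0.444% of all tested genes). MMP14 differed by -0.91 (adjusted p = 6.61e-09), MMP1 by -0.81 (adjusted p = 7.56e-10), MMP2 by -0.57 (adjusted p = 2.67e-06), TIMP2 by -0.38 (adjusted p = 9.15e-05) and TIMP1 by -0.14 (adjusted p = 0.00329). RECK was 0.12 higher with ceritinib (95% interval 0.02 to 0.23, adjusted p = 0.0697), and it passed without the variance trend (adjusted p = 0.0497) or without combination replicate 1 (adjusted p = 0.04995).

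Both drugs together gave more TIMP1, MMP2 and TIMP2 transcript and less MMP14 than DMSO. MMP1 was higher as deposited and after GC correction, but passed as lower under quantile normalization (-0.22, adjusted p = 1.53e-05 in the limma fit). TIMP3 and RECK were lower as deposited but not after GC correction. All 7 tested genes passed, 4 higher and 3 lower, but so did 87.7% of all tested genes (36.8% higher and 50.9% lower), so the count says little about these genes. The split was 4 higher and 1 lower after GC correction, with 80.2% of all genes passing, 4 and 2 under median-of-ratios scaling, 3 and 4 under quantile normalization, and 4 and 4 of 10 tested genes on the TPM scale. Over all genes 5323 were higher and 5205 lower of 11905 under median-of-ratios scaling. Under quantile normalization these counts were 5199 and 5086 of 11944, and on the TPM scale 4128 and 8409 of 15658. In log2(FPKM + 1) TIMP1 was past 2-fold as deposited, as were 20.9% of all tested genes, and after GC correction MMP14 (-1.05) was and TIMP1 (0.93) was not. In FPKM itself MMP2 (2.34-fold higher) and RECK (2.03-fold lower) were past it as well. MMP2 also was under median-of-ratios scaling (1.15), quantile normalization (1.19) and TPM scaling (1.00). So were TIMP2 under median-of-ratios scaling (1.01) and RECK under TPM scaling (-1.03). The median change of all tested genes was -0.16 as deposited, -0.36 on the TPM scale and 0.01 under median-of-ratios scaling. Relative to the median of all genes, the deposited changes were 1.73 for TIMP1, 1.13 for MMP2, 0.98 for TIMP2, 0.39 for MMP1, -0.09 for TIMP3, -0.50 for RECK and -0.52 for MMP14. TIMP1, MMP2 and TIMP2 were higher and MMP14 lower under every scaling and correction run.

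**Figure D2:**
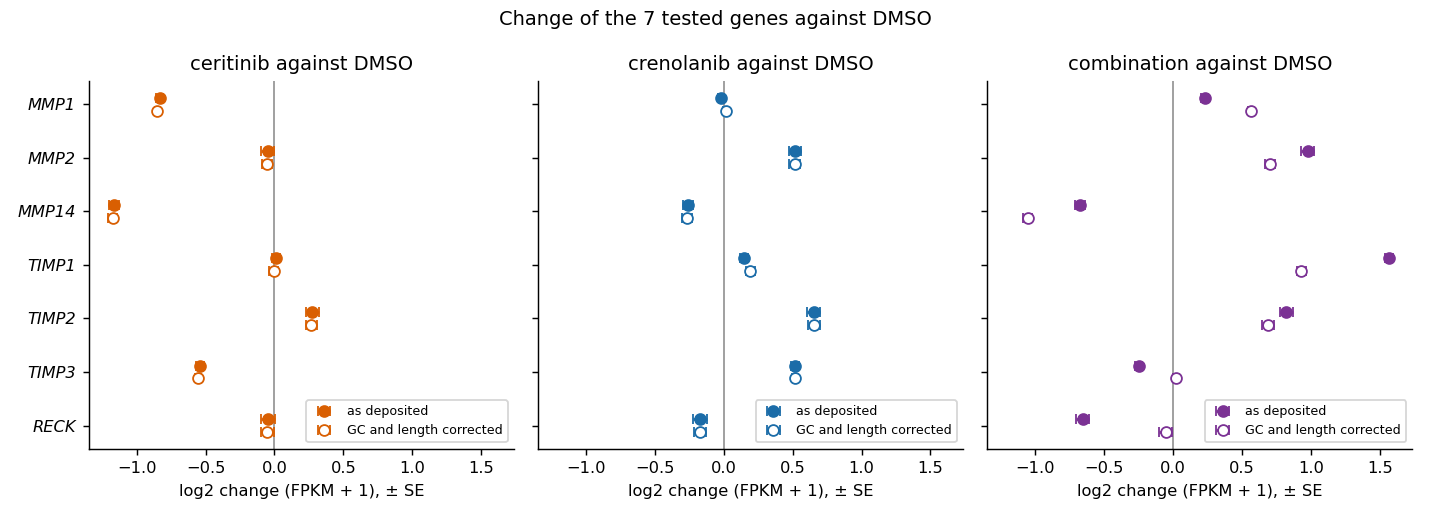
Difference from DMSO in log2(FPKM + 1) (horizontal axis, ± SE) for the 7 tested genes in each treatment, as deposited (filled points) and after removal of GC and length trends (open points). Filled and open points nearly coincide for the single drugs, and in the combination the RECK point moves from -0.65 to -0.05 and the TIMP1 point from 1.57 to 0.93.

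Adding crenolanib to ceritinib gave higher levels of MMP1, MMP2, MMP14 and the 3 TIMPs than ceritinib alone, and less RECK as deposited. All 7 genes passed, 6 higher and 1 lower, where 87.2% of all tested genes passed, 35.9% higher and 51.3% lower. The split was 6 and 0 after GC correction, with 79.1% of all genes passing, 5 and 1 under quantile normalization, and 6 and 2 of 10 on the TPM scale. Over all genes 5211 were higher and 5008 lower of 11944 under quantile normalization, and 4239 and 8158 of 15658 on the TPM scale. This comparison shares the combination libraries with the one before and the one after. TIMP1 (1.56, adjusted p = 3.68e-13), MMP1 (1.06) and MMP2 (1.03, adjusted p = 3.27e-10) were past 2-fold as deposited, and 18.7% of all tested genes were. After GC correction the differences were 0.93, 1.41 and 0.76, so MMP1 alone was past 2-fold, and quantile normalization put MMP1 at 0.56. TIMP2 was 0.55 higher (adjusted p = 2.07e-07; 0.42 after GC correction). TIMP3 was 0.29 higher (adjusted p = 4.83e-07; 0.57 after GC correction), short of the threshold under quantile normalization (0.06, adjusted p = 0.0631). RECK differed by -0.61 as deposited (adjusted p = 1.01e-07) and by -0.0016 after GC correction (adjusted p = 0.976).

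Adding ceritinib to crenolanib gave more TIMP1 and MMP2 and less MMP14 and TIMP3 than crenolanib alone. All 7 genes passed, 4 higher and 3 lower, where 87.5% of all tested genes passed, 37.4% higher and 50.1% lower. The split was 4 and 2 after GC correction, with 78.9% of all genes passing, 3 and 4 under quantile normalization, and 3 and 3 of 10 on the TPM scale. Over all genes 5296 were higher and 5074 lower of 11944 under quantile normalization, and 4335 and 8042 of 15658 on the TPM scale. TIMP1 was 1.42 higher as deposited (adjusted p = 6.65e-13) and past 2-fold, as were 19.7% of all tested genes, and it was 0.74 higher and not past 2-fold after GC correction. MMP2 was 0.46 higher (adjusted p = 8.50e-07) and 0.19 higher after GC correction (adjusted p = 6.31e-04). TIMP3 was lower by 0.77 log2 units (a difference of -0.77, adjusted p = 4.43e-11; -0.49 after GC correction) and MMP14 differed by -0.41 (adjusted p = 2.04e-07; -0.79 after GC correction). MMP1 was 0.25 higher as deposited (adjusted p = 6.26e-07), 0.55 higher after GC correction and at -0.24 under quantile normalization. RECK differed by -0.48 as deposited (adjusted p = 9.71e-07) and by 0.12 after GC correction (adjusted p = 0.0309).

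Whether the pair acted as the sum of its parts was tested with an interaction term, which takes both single-drug changes away from the change under the pair, in log2 units. Departures from the sum passed for 6 of 7 genes, 4 above and 2 below, where 81.5% of all tested genes passed, 33.8% above and 47.7% below. The split was 5 and 1 after GC correction, with 70.1% of all genes passing, 4 and 1 under median-of-ratios scaling and under quantile normalization, and 4 and 4 of 10 on the TPM scale. Over all genes 5027 lay above and 4821 below of 11905 under median-of-ratios scaling. Under quantile normalization these counts were 4945 and 4657 of 11944, and on the TPM scale 4005 and 7035 of 15658. TIMP1 lay above the sum by 1.41 (SE 0.041, adjusted p = 3.65e-11): the single changes sum to 0.16 and the combination gave 1.57. For MMP1 the single changes sum to -0.85 and the combination gave 0.23, a departure of 1.08 (SE 0.035, adjusted p = 6.44e-11). These departures were 0.74 and 1.40 after GC correction, and TIMP1 and MMP1 were past 2-fold as deposited, as were 19.1% of all tested genes. MMP14 lay above its sum by 0.75 (adjusted p = 3.00e-08) and MMP2 by 0.51 (adjusted p = 1.22e-05), with 0.39 and 0.24 after GC correction. TIMP3 lay below by 0.22 (a departure of -0.22, adjusted p = 1.80e-04) and RECK by 0.44 (a departure of -0.44, adjusted p = 8.02e-05). Both turned positive after GC correction, to 0.06 (adjusted p = 0.132) and 0.17 (adjusted p = 0.0337). TIMP2 was at -0.11 (95% interval -0.25 to 0.04, adjusted p = 0.158), -0.23 after GC correction (adjusted p = 0.00429), -0.16 without crenolanib replicate 3 (adjusted p = 0.0189) and 0.09 under median-of-ratios scaling.

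The composition of the inhibitor transcripts differed between the groups. TIMP3 made up 57.2% ± 0.845 of the summed TIMP1, TIMP2 and TIMP3 FPKM with DMSO (SD, n = 3), 46.8% ± 0.834 with ceritinib, 62.0% ± 0.458 with crenolanib and 28.1% ± 0.574 with both drugs. TIMP1 made up 37.4% ± 0.820, 45.2% ± 0.859, 31.3% ± 0.191 and 66.0% ± 0.663 in the same order. TIMP3 was thus the main TIMP transcript in DMSO and crenolanib cells and TIMP1 in the combination, and the libraries of these groups did not overlap in either share. After GC correction the contrast was smaller and the libraries still did not overlap: TIMP3 made up 53.7%, 43.3%, 58.0% and 38.2%, and TIMP1 40.9%, 48.7%, 35.2% and 55.3%. The summed TIMP level was 104.2 ± 2.35, 86.9 ± 0.853, 138.4 ± 2.63 and 178.2 ± 1.06 FPKM. The summed level of the 6 MMPs was 574.5 ± 2.21, 319.9 ± 4.72, 563.1 ± 9.28 and 659.2 ± 14.2 FPKM, of which MMP1 alone was 93.6%, 94.4%, 94.2% and 95.8%. The MMP to TIMP ratio of these sums was 5.52 ± 0.106 with DMSO, 3.68 ± 0.0484 with ceritinib, 4.07 ± 0.105 with crenolanib and 3.70 ± 0.101 with both drugs, so as deposited all treated libraries lay below all DMSO libraries. From GC-corrected levels, an alternative chosen after seeing the data, the ratio was 5.14 ± 0.114, 3.37 ± 0.0259, 3.86 ± 0.0988 and 5.10 ± 0.0698. The combination libraries (5.03 to 5.17) then overlapped those of DMSO (5.02 to 5.25), so the lower ratio held with the single drugs under both and with the combination only as deposited. Without MMP1 the ratio was 0.351 ± 0.0169, 0.206 ± 0.00305, 0.236 ± 0.00521 and 0.154 ± 0.00525, and 0.369, 0.215, 0.246 and 0.150 after GC correction. Such ratios compare transcripts and say nothing of the proteins, and no test was made on them.

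MMP14 and TIMP2, which act as a pair on the proenzyme of MMP2, moved in opposite directions in every treatment. Their FPKM ratio was 5.49, 6.20 and 5.95 in the DMSO libraries, 2.0, 2.05 and 2.0 with ceritinib, 2.86, 2.76 and 3.13 with crenolanib, and 1.90, 1.78 and 2.03 with both drugs. Every treated library was below every DMSO library, and the ceritinib and combination libraries overlapped. After GC correction the mean ratios were 6.14, 2.12, 3.03 and 1.67, and the combination libraries (1.58 to 1.81) lay below those of ceritinib (2.06 to 2.17).

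**Figure D3:**
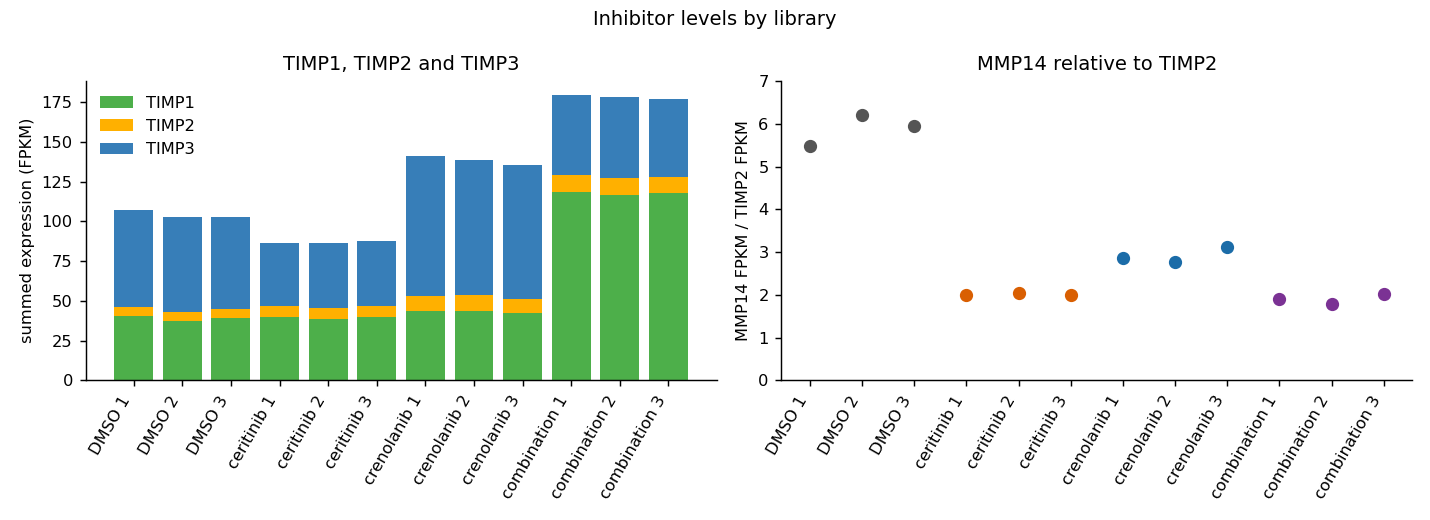
Left, deposited FPKM of TIMP1, TIMP2 and TIMP3 stacked for each of the 12 libraries, with the axis starting at 0. Right, MMP14 FPKM divided by TIMP2 FPKM in the same libraries. TIMP1 is the larger share in the 3 combination libraries, and the ratio is between 5.49 and 6.20 with DMSO and at or below 3.13 in every treated library.

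Other members of the metalloproteinase family were mostly silent. Of 17 further MMP genes and TIMP4, 18 genes in all, 4 reached the testing level, and the other 14 had group means below 1 FPKM, with MMP10 the highest at 0.664 FPKM in the combination. TIMP4, a TIMP with restricted tissue expression, read 1.83, 1.81 and 1.68 FPKM with DMSO and 1.44, 1.39 and 0.907 with ceritinib, without overlap, a fall of 0.31 log2 units (adjusted p = 0.0270). That call was lost without DMSO replicate 1 (adjusted p = 0.0745), without DMSO replicate 2 (0.0697), without ceritinib replicate 3 (0.105) or with no filter on low values (0.0727). Crenolanib changed none of the 4 past the threshold, and the combination changed 3, where 87.7% of all tested genes passed. The median changes of the 4 genes were 0.0020 with ceritinib, -0.0066 with crenolanib and 0.33 with both drugs (-0.10 after GC correction), against 0.0134, -0.0036 and -0.16 over all tested genes. With both drugs MMP17, a membrane-type enzyme, was 0.51 higher and MMP16, another, fell by 0.83 (adjusted p = 5.53e-05 and 1.89e-08), and GC correction gave them opposite signs (-0.25 and 0.28). MMP15, also a membrane-type enzyme, reached the testing level through its combination libraries only (1.06 to 1.34 FPKM, at most 0.751 elsewhere). It therefore had to be higher there, and nothing is read from its part in the count and the median. Its GC-corrected difference was 0.04.

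Genes that activate or control metalloproteinases from outside the family, such as the plasminogen system, moved in both directions. Of 20 such genes 17 were tested, with 9 higher and 7 lower under ceritinib, 7 and 8 under crenolanib, and 6 and 8 under the combination (8 and 7 after GC correction). On the TPM scale ceritinib gave 6 higher and 7 lower of 19, where 1479 and 3109 of all 15658 tested genes were. As deposited, the shares of all tested genes that passed were 36.5%, 26.0% and 87.7% (80.2% after GC correction), so the combination count is near the background. The median changes of the 17 genes were 0.12, -0.03 and -0.04. PLAU, the urokinase whose product plasmin can activate proenzymes of MMPs, stood at 234.5 ± 6.28 FPKM with DMSO, 383.9 ± 3.13 with ceritinib, 160.8 ± 0.642 with crenolanib and 207.2 ± 3.79 with both. It rose by 0.71 with ceritinib (adjusted p = 1.26e-09) and fell by 0.54 with crenolanib (adjusted p = 3.06e-08), where MMP1 fell by 0.83 and did not pass the threshold, respectively. SERPINE2, an inhibitor of thrombin and plasminogen activators, rose by 0.73 with ceritinib (adjusted p = 1.56e-08) and by 1.47 with both (adjusted p = 1.19e-12; GC-corrected 2.33). CAV1, the main protein of caveolae, fell by 1.72 with both drugs (adjusted p = 1.35e-13; GC-corrected -1.43). The plasminogen activator PLAT fell by 0.91 with crenolanib (adjusted p = 3.06e-08). TFPI2, a serine protease inhibitor of the matrix, was 1.14 higher with ceritinib than with crenolanib (adjusted p = 2.54e-08).

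Among ADAM and ADAMTS proteases, the related families that shed membrane proteins and cut proteoglycans, 12 of 24 were tested. Ceritinib raised 2 and lowered 3 (median change -0.09), crenolanib raised 3 and lowered 1 (median -0.02), and the combination raised 2 and lowered 10 as deposited but raised 6 and lowered 5 after GC correction. The shares of all tested genes that passed were 36.5%, 26.0%, 87.7% and, after GC correction, 80.2%. ADAMTS6, one of the 2 higher with ceritinib, reached the testing level through the ceritinib libraries only (1.02 to 1.22 FPKM, at most 0.980 elsewhere) and had to be higher there. The list's median in the combination was -0.59 as deposited and 0.14 after correction, with -0.16 and -0.01 over all tested genes. ADAMTS1, which cuts versican and aggrecan, rose from 0.936 to 2.49 FPKM with ceritinib (log2 change 0.85, adjusted p = 5.22e-07). ADAM9, a membrane protease, fell by 0.39 with ceritinib (adjusted p = 4.99e-06) and by 1.70 with both drugs (adjusted p = 6.30e-13; GC-corrected -0.96). ADAM10, which sheds many receptors and ligands, fell by 0.90 with both drugs as deposited (adjusted p = 6.14e-10) and was 0.21 higher after GC correction (adjusted p = 9.23e-05).

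Of 20 transcription factors known to act at MMP promoters, 19 were tested. Ceritinib raised 3 and lowered 9, crenolanib raised 6 and lowered 3, and both drugs raised 9 and lowered 9, where 36.5%, 26.0% and 87.7% of all tested genes passed. The combination count is near that background. Their median changes were -0.10, -0.00064 and 0.06 in that order. With ceritinib the AP-1 member FOSL2 rose by 0.56 (adjusted p = 2.22e-06), and the ETS factors ETS1 and ETV5 fell by 0.32 and 0.34 (adjusted p = 1.42e-05 and 1.39e-05). With crenolanib the AP-1 member JUN fell by 0.51 (adjusted p = 5.61e-06) and STAT3, the transcription factor of cytokine signalling, rose by 0.30 (adjusted p = 1.15e-04). With both drugs JUND, another AP-1 member, rose from 2.63 ± 0.287 to 19.5 ± 0.906 FPKM (log2 change 2.50, adjusted p = 5.21e-12; GC-corrected 1.66). ETS1 and SP1 fell by 1.55 and 1.18 (adjusted p = 7.51e-13 and 7.84e-12), and by 0.82 and 0.45 after GC correction.

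The substrates of these enzymes moved in both directions. Of 24 matrix genes 17 were tested, with 8 higher and 7 lower under ceritinib, 8 and 3 under crenolanib, and 9 and 8 under the combination (7 and 10 after GC correction), where 36.5%, 26.0% and 87.7% (80.2% corrected) of all tested genes passed. Their median changes were 0.06, 0.08 and 0.19 (-0.24 after GC correction). Fibronectin, FN1, rose by 0.63, 0.71 and 1.17 with ceritinib, crenolanib and both (adjusted p = 8.41e-09, 1.17e-08 and 1.20e-12; GC-corrected 2.11 with both). The proteoglycan versican, VCAN, fell by 0.71, 0.35 and 2.57 in the same order (adjusted p = 7.19e-08, 7.04e-05 and 1.49e-13; GC-corrected -1.61 with both), to 0.892 FPKM in the combination. SPARC, a protein that binds collagen, rose by 0.47 with ceritinib (adjusted p = 7.47e-08). The collagen chain COL6A3 rose by 0.47 with crenolanib (adjusted p = 6.27e-07), and it differed by -0.69 between ceritinib and crenolanib (adjusted p = 1.30e-08). The laminin chain LAMB1 fell by 1.30 with both drugs (adjusted p = 1.56e-12; GC-corrected -0.99).

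**Figure D4:**
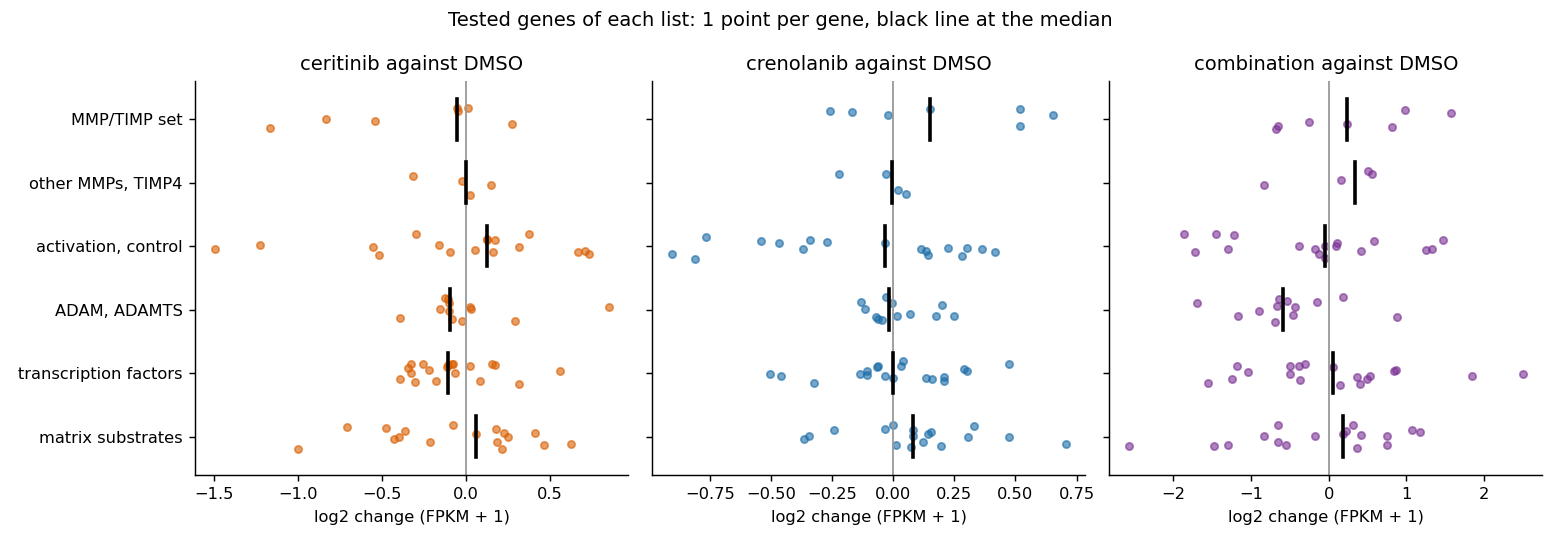
Difference from DMSO in log2(FPKM + 1) for each tested gene (1 point per gene) of the 10-gene set and of the 5 lists described, with the black line at the list's median. The 3 panels have different horizontal ranges. In the combination panel most ADAM and ADAMTS points lie below 0, with a median of -0.59 before GC correction.

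The genes with the most similar course over the 12 libraries were found for each tested gene among 10568 protein-coding genes, by the root mean square difference of log2(FPKM + 1) after each gene's mean was subtracted. TIMP1 was followed most closely by ARF4 (0.0462) and P4HB (0.0470), genes of vesicle transport and of collagen hydroxylation and protein folding. P4HB read 92.8 FPKM with DMSO, 95.3 with ceritinib, 108.7 with crenolanib and 275.7 with both drugs. RECK was followed by PMPCB (0.0408) and CMTM4 (0.0435), MMP2 by ITGA11 (0.0573) and COMMD7 (0.0816), MMP14 by KCNN4 (0.0667) and EFNB1 (0.0906), and TIMP2 by GALNT3 (0.0689) and JAM2 (0.111). ITGA11, a collagen-binding integrin chain, read 0.700, 0.686, 1.49 and 2.37 FPKM in DMSO, ceritinib, crenolanib and the combination. NTSR1 (0.101) and ITGB5 (0.133) came first for MMP1, and ITGA10 (0.111) and PRSS23 (0.117) for TIMP3. The same measure of a gene's own course around its mean ran from 0.263 for RECK to 0.659 for TIMP1. Adding 1 to FPKM shrinks the course of genes near 1 FPKM, so genes alike on this scale can differ in FPKM. From DMSO to the combination RECK went from 2.54 to 1.25 FPKM and PMPCB from 9.64 to 5.96. The combination libraries, with their trend in GC content and length, are part of every such pattern, and the part of that trend in the likeness was not tested.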

How the data were processed

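RNA from 12 libraries of 143B cells was sequenced with strand-specific libraries on an Illumina NovaSeq instrument, per the labels' protocols. The deposited values are FPKM per gene symbol, a unit inferred from their range and steps because the tables have no header for it; per the submitters' processing notes, the authors used FastQC 0.11.2, STAR and StringTie on hg38. STAR and StringTie versions and the gene annotation: not given in the sources used here. An entry with no symbol was left out. Estimated depth, read from the steps of low values, was 19.6 to 28.3 M fragments and entered no test. Depth limits the genes under 1 FPKM most.

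The 11944 genes that reached 1 FPKM in 3 or more libraries were fitted with limma 3.58.1 in R 4.3.3 on log2(FPKM + 1), with 1 mean per group, a variance trend and 8 residual degrees of freedom; p-values were adjusted by Benjamini-Hochberg over all tested genes, with 0.05 as the threshold, for each of 7 comparisons. The 3 genes under the filter were compared by exact permutation. GC and length trends were removed per library with natural splines (5 degrees of freedom each) over 11765 genes with a GENCODE v29 transcript. Alternatives were another pseudocount, no filter, 3 scalings, the GC correction, a replicate block, no variance trend, fewer groups and each library left out; leaving out the combination libraries and the GC-corrected sums were added after seeing the data. Coordinates are from GENCODE v29 (GRCh38) and promoters from RefSeq, where 4 of the 10 genes had an entry.

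The genes and the lists were chosen with earlier results of these data known. From each list, in each comparison, up to 3 genes past the threshold with the smallest adjusted p, and any further MMP or TIMP gene, could be named; for each tested gene the 2 most similar genes are named. One gene that this rule names is not reported here.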

Additional observations from a re-analysis of the deposited data

Results flagged for a closer look

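For 6 genes the response to one drug differed with and without the other drug, by the interaction term of the fit (adjusted p under 0.05). The combination differed from the sum of the single-drug changes by 1.08 log2 units for MMP1, 0.51 for MMP2, 0.75 for MMP14, 1.41 for TIMP1, -0.22 for TIMP3 and -0.44 for RECK. After GC correction the same departures were 1.40, 0.24, 0.39, 0.74, 0.06 and 0.17. The TIMP3 term did not pass then (adjusted p = 0.132), nor under median-of-ratios scaling (-0.02, adjusted p = 0.694). The RECK term passed after GC correction with the opposite sign (adjusted p = 0.0337) and did not pass under quantile normalization (-0.13, adjusted p = 0.0781). Of all tested genes 81.5% passed this test, so the count of 6 among 7 tested genes says little about these genes. No group had enough libraries for a test of single outlying values.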

How the results depend on the processing

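The number of genes past the threshold stayed within 1.5 times its main value in each of the 157 alternative counts over the 7 comparisons. With only 7 genes tested, or 10 in some alternatives, most counts had little room to leave that range. The range also ignores direction. For the combination against DMSO the split was 4 higher and 3 lower in the main fit, and 3 and 4 under quantile normalization. When 1 library was left out, the counts ranged from 4 to 4 for ceritinib, 5 to 6 for crenolanib and 7 to 7 for the combination against DMSO, 7 to 7 for the combination against each single drug, and 6 to 7 both for ceritinib against crenolanib and for the interaction. With the combination libraries left out, an alternative chosen after seeing the data, the counts were 4, 6 and 6 for the comparisons without the combination. In the main fit 36.5%, 26.0% and 87.7% of all tested genes passed for ceritinib, crenolanib and the combination against DMSO. The shares were 87.2% and 87.5% for the combination against ceritinib and crenolanib, 34.8% for ceritinib against crenolanib and 81.5% for the interaction. Steady counts in the combination comparisons and the interaction therefore say little about these genes.

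For the single tested genes 1058 of the 1099 alternative values kept direction and call and 20 changed sign. Of those with the same sign 15 no longer passed and 6 newly passed. Some that changed sign also no longer passed, namely the GC-corrected TIMP3 values of combination against DMSO and of the interaction. TIMP1, ceritinib against DMSO, changed sign on the TPM scale (-0.0611), under median-of-ratios scaling (-0.00566), quantile normalization (-0.0181) and GC correction with or without the replicate block (-0.00378), and with 1 library left out it ranged from -0.0146 (without DMSO replicate 2) to 0.0362. MMP1 changed sign under quantile normalization in crenolanib against DMSO (0.0198), combination against DMSO (-0.22) and combination against crenolanib (-0.24), and under GC correction in crenolanib against DMSO (0.0132). Under GC correction TIMP3, combination against DMSO, was at 0.0218 and its interaction at 0.0575, RECK was at 0.12 against crenolanib and its interaction at 0.17, and MMP16, MMP17 and ADAM10 in combination against DMSO were at 0.28, -0.25 and 0.21, each the same with the replicate block. The TIMP2 interaction was 0.0877 under median-of-ratios scaling. The cause of these changes was not tested.

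The summed MMP level in DMSO, ceritinib, crenolanib and combination was 2327, 1230, 2251 and 2395 on the TPM scale, 550.8, 302.7, 545.0 and 729.3 FPKM under median-of-ratios scaling and 36.5, 17.9, 32.6 and 27.5 FPKM without MMP1. The summed TIMP level was 422.0, 334.3, 553.2 and 647.4 on the TPM scale and 99.9, 82.3, 133.9 and 197.1 FPKM under median-of-ratios scaling. The MMP to TIMP ratio was 0.351, 0.206, 0.236 and 0.154 without MMP1, and rescaling a library cannot change it. From GC-corrected levels, an alternative chosen after seeing the data, the summed MMP level was 545.7, 299.6, 546.0 and 771.7 FPKM, the summed TIMP level 106.1, 88.9, 141.3 and 151.4 FPKM, and the ratio 5.14, 3.37, 3.86 and 5.10. Without MMP1 the combination had a lower MMP sum than DMSO, opposite to the full sum.

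Replicate numbers did not mark shared batches in the labels, and the 18 same-numbered pairs of libraries showed a median residual correlation of -0.0011, 1 of them over 0.1; 5 of 12 libraries correlated best with their own number. With the number as a replicate block the counts were 4, 6, 7, 7, 7, 6 and 6, and 4, 6, 5, 6, 6, 6 and 6 with the GC correction as well, in the order ceritinib, crenolanib and combination against DMSO, combination against ceritinib and crenolanib, ceritinib against crenolanib, and interaction.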
